A study of Takifugu obscurus and Periophthalmus magnuspinnatus and Gallus gallus with 6 samples.

Results

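The collagen genes of the fugu and chicken spinal cord were described across cell classes. Members were all genes of the deposited fugu and chicken matrices whose symbol, in capitals, begins with COL, a number, A and a further digit. The rule took 27 fugu and 34 chicken genes, 61 of the 60642 genes in the matrices of the series, and it used no measured value. Genes listed by identifier alone could not be matched to it. The study compared oligodendrocyte differentiation between vertebrates, and the samples used here were 2 libraries of fugu and 2 of chicken. Fugu were fish about 1 month after hatching, labelled Takifugu obscurus and described in the study's methods as hybrids of Takifugu obscurus and Takifugu rubripes. Chicken (Gallus gallus) were embryos of E10 to E11, or Hamburger-Hamilton stages 36 to 37. The labels name no treatment or genotype in either species. In both species the rostral cord, at the level of the pectoral fin or wing, was pooled from several animals, digested with pronase and sorted for cells that excluded propidium iodide, so a library is a pool of animals and the spread between 2 libraries is a spread between pools. Mudskipper, the third species of the series, has no gene symbols in its files and was not analysed here.

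Collagens are secreted or membrane proteins whose chains wind into a helix. Fibrillar collagens (types I, II, III, V and XI) form the cables of connective tissue, type IV forms the sheet of basement membranes, type VI forms beaded microfibrils, and fibril-associated collagens (such as types IX, XII, XIV and XXII) decorate fibrils. Other members span the plasma membrane (XIII, XVII and XXV), form short-chain networks (VIII and X) or carry heparan sulfate chains and release fragments (XVIII, whose fragment is endostatin). In the nervous system they are best known from the basement membrane of vessels and from the meninges, whereas neurons and glia are usually described as poor in fibrillar collagen.

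The matrices held 25763932 and 25721131 unique molecular identifiers (UMIs) in the fugu libraries and 129947198 and 131974386 in the chicken libraries. Cells were kept at the minimums of the study, which left 2556 and 2519 fugu cells with medians of 5386 and 5455 UMIs, and 7626 and 7743 chicken cells with medians of 12124.5 and 12440.0 UMIs. The 2 fugu libraries shared 0 cell barcodes among kept cells and the 2 chicken libraries shared 14. Levels are given as CPM, the usual scaling of a gene's UMIs by the library-size total, here the sum over a class in a library, so a class yields 2 values per gene. The reads came from the 3′ ends of transcripts and are not scaled to gene length, so the level of a gene is compared between classes, and sums or shares over several genes count UMIs and are not per length. The deposited files name no cell types. Cells were therefore clustered with every collagen gene left out, and clusters were named from markers that include no collagen.

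Vessel cells were few. The mural-like class (pericytes or smooth muscle) had 74 cells in fugu, with 12 mural markers, and 170 cells in chicken, with 7 mural and 4 meningeal markers. An endothelial-like class of 49 cells, with 11 markers, formed in chicken and not in fugu. No cluster took a meningeal or fibroblast name in either species: in the chicken mural-like class LUM, OGN, DPT and OSR1, which mark fibroblasts, were at 0 UMIs in both libraries, whereas DCN (264 and 381 CPM), FOXC2 (128 and 151 CPM) and TWIST1 (105 and 94.4 CPM) were present. Of 15 meningeal or fibroblast genes measured, 5 were at 0 there, and their summed level was 601 and 744 CPM. In the fugu mural-like class 12 of 21 such genes were at 0, with dcn and lum among them, and most of the sum of 639 and 746 CPM came from foxc1a. The chicken mural-like cells also held RNA of the endothelial list at 1944 and 2032 CPM, nearly all of it FLT1, against 8175 and 7706 CPM in the endothelial-like class. In fugu, where no endothelial class formed, the endothelial list summed to 879 and 296 CPM in the mural-like class, with vwf, plvapa and plvapb at 0. The part of these transcripts in the collagen levels was not tested.

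The remaining classes were neural, glial or of blood. Both species had oligodendrocyte-lineage, astrocyte-like or radial glia-like, neuron-like, cycling and erythroid-like classes. In chicken the cycling class carried 6 lineage markers. Cycling markers were also carried by an astrocyte-like cluster of 721 cells (8 markers) and a lineage cluster of 202 cells (7 markers). The chicken cycling class thus does not hold all cycling cells. Fugu further had microglia-like or macrophage-like cells, T-like or NK-like cells and a cluster of 236 cells that was kept apart because it carried C1QL4, SEMA5A and PLXNB1 and is called here the sema5a-positive cluster. That cluster also carried 9 lineage markers, including SOX10, OLIG2 and CSPG4, and 5 neuron markers. Chicken further had an ependymal-like cluster of 132 cells that carried 5 ependymal markers, FOXJ1 and RFX4 among them. It carried as many astrocyte markers, so its name is less secure than the others. The meningeal or fibroblast genes summed to 401 and 319 CPM in it, against at most 115 CPM in another chicken neural or glial class. The part of this in its collagen levels was not tested.

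In fugu 25 of the 27 members had at least 1 UMI in kept cells and 9 had at least 100, and in chicken 34 of 34 and 33 of 34 did. Fibril-associated members held 42.8% of the fugu collagen UMIs, microfibril members 27.8%, fibrillar members 17.7% and basement membrane members 5.65%. In chicken fibrillar members held 40.9%, fibril-associated members 29.9%, basement membrane members 15.7% and transmembrane members 8.27%. Single genes made up most of the leading shares. In fugu col9a2 had 2366 of the 2703 fibril-associated UMIs and col6a1 had 1639 of the 1757 microfibril UMIs. In chicken COL11A1 had 61337 of the 88371 fibrillar UMIs. Basement membrane members numbered 2 in fugu, COL4A1 and col4a5, and 6 in chicken, so the shares of the species cover unlike sets of genes. In fugu the summed collagen level was 2444 and 3136 CPM in mural-like cells and 1020.3 and 1111 CPM in the sema5a-positive cluster, against 229 and 267 CPM in astrocyte-like cells, 107 and 141 CPM in neurons and 73.2 and 138 CPM in the oligodendrocyte lineage. Microglia-like cells held 4.59 and 6.23 CPM, the lowest of the tested fugu classes with a UMI in both libraries. In chicken the sums were 7507 and 8349.8 CPM in mural-like cells, 2954 and 1871 CPM in the ependymal-like cluster, 2556 and 2717 CPM in astrocyte-like cells, 2095 and 1602 CPM in endothelial-like cells, 792 and 916 CPM in neurons and 439 and 391 CPM in the oligodendrocyte lineage, with 52.1 and 83.0 CPM in erythroid-like cells. In fugu the sums of mural-like, sema5a-positive and astrocyte-like cells did not overlap, whereas in chicken the ependymal-like sums overlapped both the endothelial-like and the astrocyte-like ones.

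**Figure D1:**
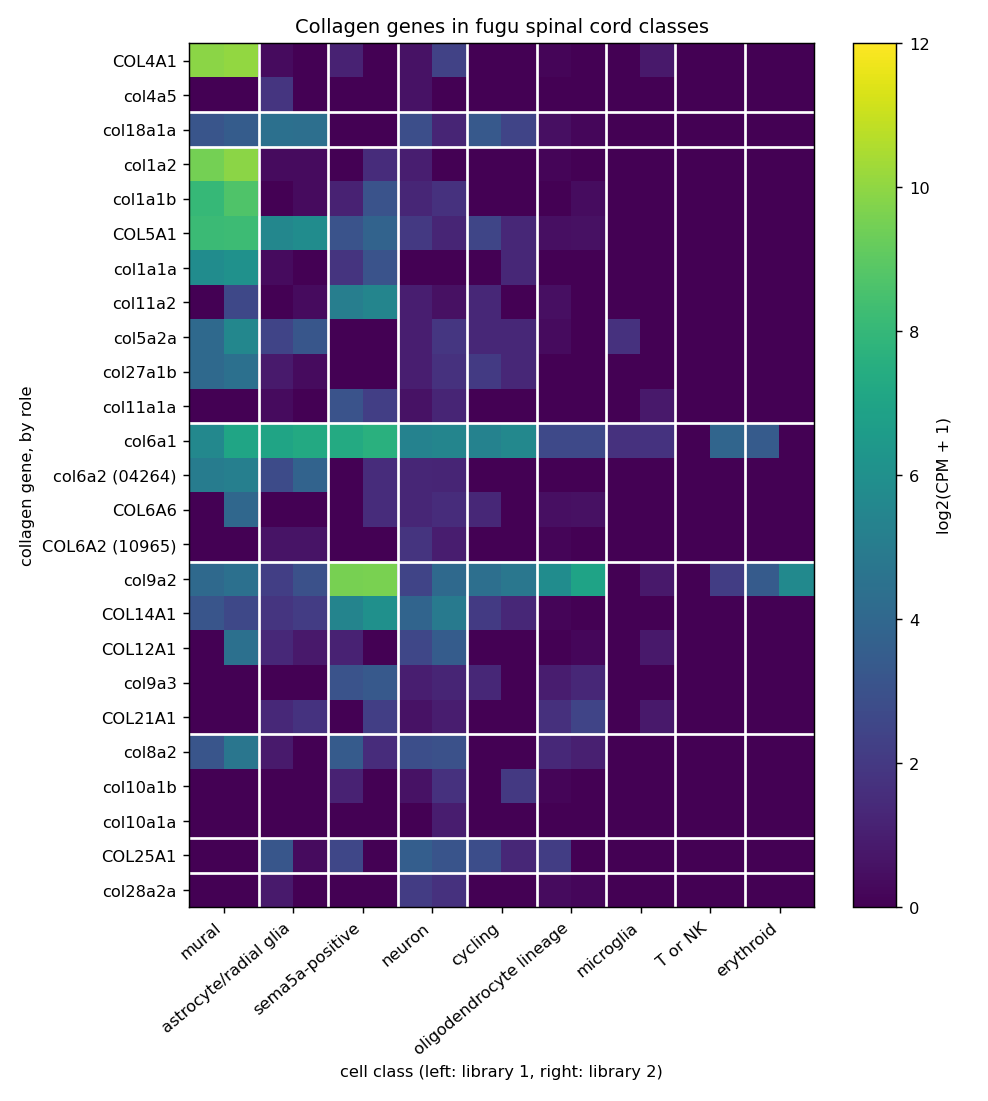
Level of each fugu collagen with a UMI in each class (genes grouped by role down the side, classes along the bottom with library 1 left and library 2 right, colour is log2 of CPM plus 1). COL4A1 and col1a2 were brightest in the mural-like class, at 974 to 1073 and 711 to 955 CPM, and col9a2 in the sema5a-positive cluster, at 741 to 756 CPM.

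**Figure D2:**
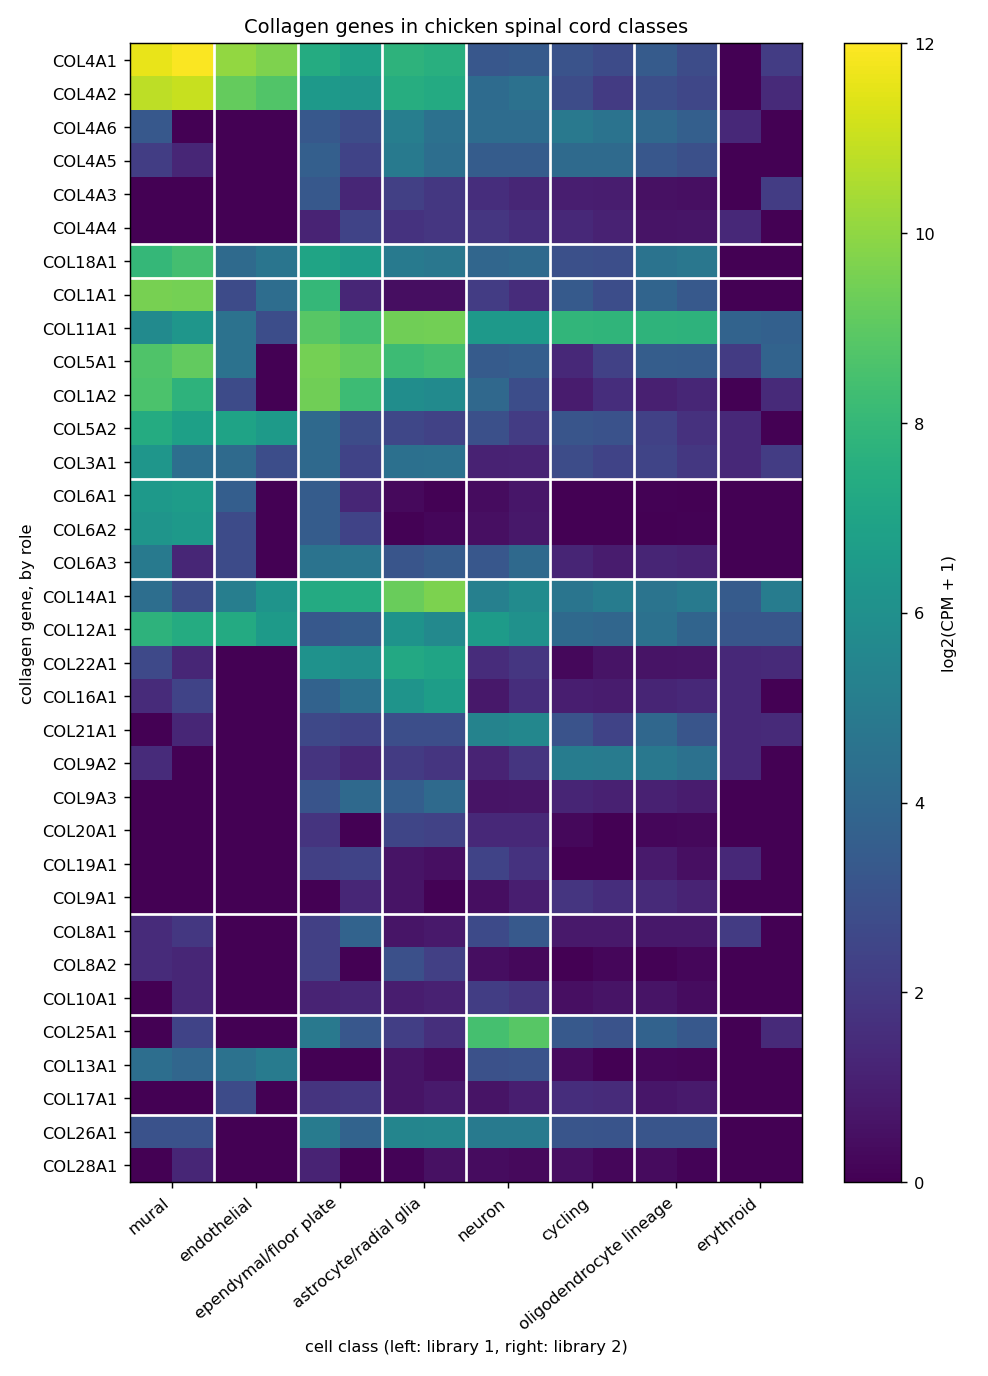
Level of each chicken collagen in each class (genes grouped by role down the side, classes along the bottom with library 1 left and library 2 right, colour is log2 of CPM plus 1). COL11A1 was at 6.18 CPM or more in every class and library, but barcodes of at most 100 UMIs held it at 208 and 247 CPM. COL6A1 and COL6A2 were bright in the mural-like class alone, at 76.3 to 98.8 CPM.

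Each class was tested with edgeR on UMIs summed per class and library, and a gene was called where its log2 fold change passed 1 at an adjusted p below 0.05. Vessel and immune classes were compared with the log-scale mean of the 5 neural and glial classes, and each neural or glial class with the log-scale mean of the other 4. Of the 27 fugu members 13 had enough UMIs to be tested, and of the 34 chicken members 33. Since a member could pass that filter through the class in which it was high, these counts do not describe the whole family. A comparator that includes classes at 0 UMIs also makes the fold change depend on the constant that edgeR adds, so levels are given beside each fold.

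In the fugu mural-like class 9 of 13 members were called higher, against 13.4% of all genes tested, and 0 lower, against 8.61% (edgeR, with 0 lower also at an unadjusted p under 0.05 and by DESeq2). With the comparator cells pooled 8 members were tested, of which 6 were higher and 1, col9a2, was lower. The median log2 fold change of the 13 was 5.49 and that of all genes −0.39. At least COL4A1, col1a2, col1a1b, col1a1a, col5a2a, col6a2 and col27a1b passed the filter on low counts through this class alone. For these genes a high level in this class was the condition for being tested. The count and the median of the 13 thus follow largely from the filter. In chicken 12 of 33 members were called higher in mural-like cells (13.7% of all genes) and 8 lower (16.7%), with a member median of −0.57 beside −0.16 for all genes, and 5 were higher (11.4%) and 2 lower (11.6%) in endothelial-like cells. The endothelial-like counts and the count lower in chicken mural-like cells lie near these backgrounds. However, the member median in endothelial-like cells, a class of 49 cells, was −5.66, beside −0.32 for all genes. Members at 0 UMIs in so small a class take fold changes that depend on the constant that edgeR adds. Neither the counts nor this median therefore place the members at a level there.

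Among neural and glial classes of fugu, the sema5a-positive cluster had 6 members higher (16.7% of all genes) and 1 lower (11.3%), astrocyte-like cells had 5 higher (18%) and 1 lower (13.2%), neurons had 3 higher (25.7%) and 2 lower (11.4%), cycling cells had 2 higher (17.5%) and 0 lower (14.6%; edgeR, likewise 0 at an unadjusted p under 0.05 and by DESeq2), and the oligodendrocyte lineage had 1 higher (15.7%) and 3 lower (25.6%). For chicken, astrocyte-like cells had 17 higher (16.8%) and 4 lower (9.38%), the ependymal-like cluster had 16 higher (16.3%) and 3 lower (9.44%), neurons had 10 higher (23.4%) and 9 lower (13.2%), the oligodendrocyte lineage had 1 higher (8.58%) and 16 lower (15.7%), and cycling cells had 2 higher (8.37%) and 20 lower (21.1%). The member medians were 1.21 in chicken astrocyte-like cells, 1.36 in the ependymal-like cluster, −1.35 in the oligodendrocyte lineage and −1.50 in cycling cells, beside medians of all genes between −0.18 and 0.03. In all, 12 fugu members were called higher in at least 1 neural or glial class, beside 64.9% of all genes tested, and 29 chicken members, beside 53% of all genes. The fugu counts in neurons, cycling cells and the oligodendrocyte lineage lie near the backgrounds of these classes. So do the chicken counts of members higher in neurons, in cycling cells and in the lineage. In the fugu lineage, however, the member median was −2.73, beside −0.19 for all genes, and the count lower changed with the method. It was 9 of 13 by DESeq2, 7 of 10 with the comparator cells pooled and 5 of 12 with the sema5a-positive cluster counted in the lineage. With the library as a block it stayed at 3 of 13. The share of all genes called lower was not taken for these alternatives, so these counts have no background beside them. In fugu cycling cells the calls changed with the comparator: with its cells pooled 8 members passed the filter, 0 of them higher and 2 lower, col9a2 and COL5A1, and with the sema5a-positive cluster counted in the lineage both higher calls, on col18a1a and col27a1b, were lost.

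The basement membrane collagens COL4A1 and COL4A2, partner chains of one helix whose genes lie head to head, set the vessel classes apart. No fugu member was named COL4A2, so for fugu this rests on COL4A1. In the fugu mural-like class COL4A1 was at 974 and 1073 CPM, and 86.7% and 95.5% of its cells carried a UMI. No other fugu class exceeded 4.13 CPM in a library, and barcodes of at most 100 UMIs, which hold mainly free RNA, were at 6.09 and 7.58 CPM. The difference from the neural and glial classes was 11.67 ± 0.31 on the log2 scale (SE; edgeR, adjusted p = 4.4e-16).

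In chicken COL4A1 was at 3120.2 and 3853 CPM in mural-like cells and at 1056 and 829 CPM in endothelial-like cells, and COL4A2 was at 1797 and 2058 CPM and at 581 and 427 CPM. Mural-like cells were above endothelial-like cells in both libraries for both genes, and all 170 mural-like cells carried both. Against the neural and glial classes COL4A1 was higher by 7.06 ± 0.15 in mural-like cells (SE, log2; edgeR, adjusted p = 5.2e-15) and by 5.02 ± 0.19 in endothelial-like cells (adjusted p = 1.7e-11), and COL4A2 by 6.38 ± 0.13 (adjusted p = 3.4e-15) and 4.30 ± 0.21 (adjusted p = 2.7e-10).

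Chicken astrocyte-like cells held both type IV chains too. COL4A1 was at 213 and 188 CPM there and COL4A2 at 179 and 158 CPM, above each of the other neural and glial classes in both libraries and above the low-count barcodes of the same libraries (62.9 and 58.9 CPM, and 53.9 and 51.3 CPM). After thinning every cell to 5000 UMIs, 49.6% and 44.8% of astrocyte-like cells still carried COL4A1, compared with 61.6% and 57.0% before. Erythroid-like cells, which should lack these genes, were at 0 and 3.32 CPM for COL4A1 at a median depth of 14436 and 13158 UMIs, deeper than the astrocyte-like cells at 9309 and 9427. Both genes were called higher in astrocyte-like cells, by 3.74 ± 0.16 (SE, log2; edgeR, adjusted p = 1.7e-11) and 3.65 ± 0.14 (adjusted p = 5.5e-12). The ependymal-like cluster was at 167 and 115 CPM for COL4A1, below the astrocyte-like values of the same library. An astrocyte-like cluster of 1562 cells also carried 3 mural markers, TAGLN, PDGFRB and TPM2. The part of this in the astrocyte-like levels of COL4A1 and COL4A2 was not tested.

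The other type IV chains had another distribution. COL4A5 and COL4A6, which pair in a second helix, were at 29.8 and 19.1 CPM and at 34.0 and 21.0 CPM in chicken astrocyte-like cells, and at 16.5 and 16.6 CPM and 28.2 and 22.8 CPM in cycling cells. In endothelial-like cells both were at 0 UMIs, and both were called lower in mural-like cells, where COL4A5 was at 3.55 and 1.45 CPM and COL4A6 at 8.87 and 0 CPM. COL4A3 and COL4A4 did not exceed 8.85 CPM in any chicken class. In fugu, col4a5 had 11 UMIs in kept cells of library 1 and 0 in those of library 2.

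**Figure D3:**
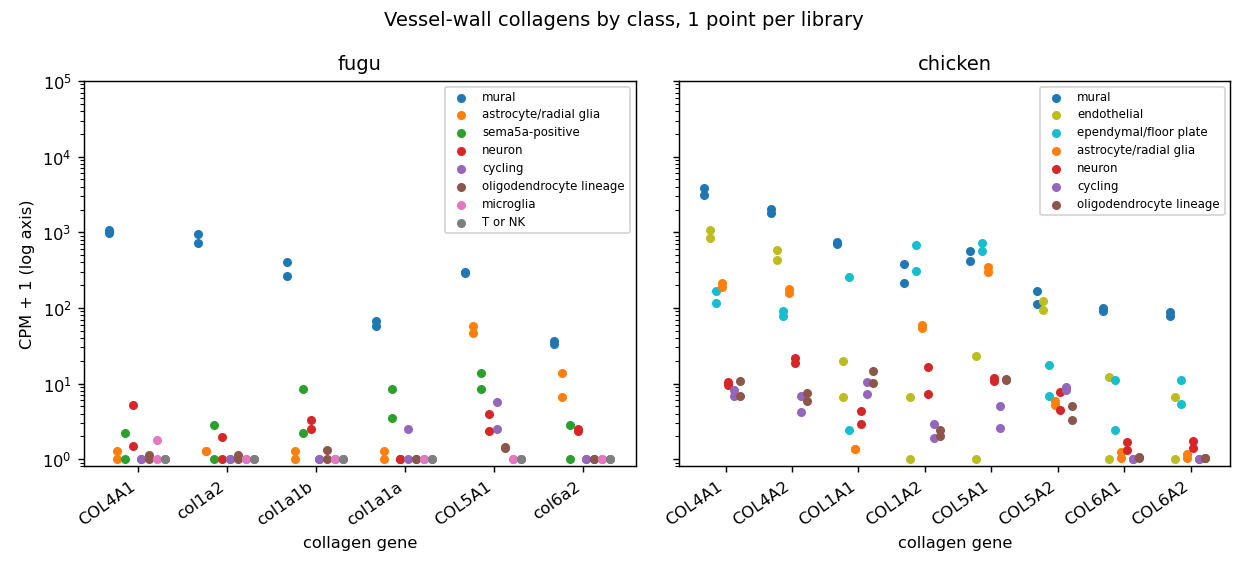
CPM plus 1 (log axis) of selected collagens in every class except erythroid-like cells, 1 point for each library, with fugu on the left and chicken on the right. For COL4A1 both mural-like points of each species lie above all others, at 974 and 1073 CPM in fugu and 3120.2 and 3853 CPM in chicken.

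Type I collagen, the main chain pair of tissue fibrils, had its highest fugu levels in mural-like cells. Fugu carry 2 copies of the first chain, col1a1a and col1a1b, and 1 copy of the second, col1a2. In mural-like cells col1a2 was at 711 and 955 CPM, col1a1b at 264 and 409 CPM and col1a1a at 55.9 and 66.4 CPM, whereas no other class exceeded 7.39 CPM for any of the 3. Both copies and the second chain were called higher, by 11.66 ± 0.32 (col1a2; edgeR, adjusted p = 2.8e-15), 9.58 ± 0.45 (col1a1b; adjusted p = 7.7e-12) and 7.57 ± 0.78 (col1a1a; adjusted p = 8.5e-07) on the log2 scale. Reads of near-identical copies can be split or lost in counting, so the relative level of the copies is uncertain. The sema5a-positive cluster held 6 UMIs of col1a1a and 5 of col1a1b, and both were called higher there, by 4.398 ± 1.08 (adjusted p = 0.0036) and 3.50 ± 1.23 (adjusted p = 0.033).

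Chicken COL1A1 and COL1A2 differed in where they were found. COL1A1 was at 754 and 709 CPM in mural-like cells and was carried by 97.3% and 99.0% of them. COL1A2 was at 383 and 215 CPM there, carried by 45.2% and 59.8%, and at 670.2 and 303 CPM in the ependymal-like cluster. The 2 library values of COL1A2 overlapped between these classes, whereas those of COL1A1 in mural-like cells lay above every value of another class. Mural-like cells were higher than neural and glial cells by 6.81 ± 0.44 for COL1A1 (SE, log2; edgeR, adjusted p = 8.2e-09) and by 4.41 ± 0.33 for COL1A2 (adjusted p = 2.0e-08). Of the library 1 UMIs of COL1A2 in mural-like cells, 66.7% came from 5 cells.

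In the ependymal-like cluster COL1A2 was called higher than in other neural and glial cells, by 6.23 ± 0.29 (SE, log2; edgeR, adjusted p = 1.5e-10), with a UMI in 66.2% and 55.7% of cells. COL1A1 was at 253 CPM in library 1 and 1.45 CPM in library 2. Of its 200 UMIs in library 1, 199 came from 1 cell, whose UMIs were 3.14% collagen. Without the cell of highest collagen share in each class and library, the call on COL1A1 was lost (−1.35 ± 1.13, adjusted p = 0.37) and that on COL1A2 stayed (6.05 ± 0.26, at 459 and 277 CPM). Astrocyte-like cells held COL1A2 at 57.8 and 52.5 CPM and COL1A1 at 0.379 and 0.371 CPM, the lowest COL1A1 values of a neural or glial class in either library. COL1A1 was called lower there by −5.04 ± 0.92 (adjusted p = 0.00031), and by −3.43 ± 0.80 (adjusted p = 0.0021) without the cell of highest collagen share in each class and library. In the oligodendrocyte lineage COL1A1 was at 13.7 and 9.10 CPM and COL1A2 at 1.05 and 1.42 CPM, and the low-count barcodes were above all 4 of these values. COL1A1 was not called in the lineage by the comparison as set out, but it was called higher there with the library as a block (1.12 ± 0.40, adjusted p = 0.0255), with the comparator cells pooled (1.51 ± 0.39, adjusted p = 0.0059) and without the cell of highest collagen share (2.79 ± 0.25, adjusted p = 2.8e-07).

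The minor fibrillar chains of type V, which start and limit the width of type I fibrils, were found in both vessel cells and glia. Fugu COL5A1 was at 288 and 296 CPM in mural-like cells, 46.0 and 56.8 CPM in astrocyte-like cells and at most 12.9 CPM elsewhere. It was called higher in both, by 6.05 ± 0.28 (SE, log2; edgeR, adjusted p = 1.9e-12) and by 4.61 ± 0.24 (adjusted p = 7.2e-12). Microglia-like and T-like or NK-like cells held 0 UMIs of it in both libraries. Its partner col5a2a was called higher in the same pair of classes, at 15.97 and 46.0 CPM and at 4.52 and 8.20 CPM. Astrocyte-like clusters differed: COL5A1 was at 83.1 and 94.7 CPM and at 54.9 and 52.3 CPM in the clusters that carried SLC1A2 and HEPACAM, and at 8.04 and 2.83 CPM in the her9-positive and crabp2a-positive cluster. The former clusters also carried 5 and 4 mural markers, pdgfrb among them, and the part of this in the COL5A1 levels was not tested.

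Chicken COL5A1 was at 722 and 568 CPM in the ependymal-like cluster, 417 and 561 CPM in mural-like cells and 300.2 and 343 CPM in astrocyte-like cells. The ependymal-like values lay above the mural-like ones of the same library, while the neuron, cycling and oligodendrocyte-lineage values did not exceed 11.0 CPM. It was called higher in the ependymal-like cluster by 5.01 ± 0.18 (SE, log2; edgeR, adjusted p = 5.7e-12), in astrocyte-like cells by 4.01 ± 0.16 (adjusted p = 1.1e-11) and in mural-like cells by 3.77 ± 0.18 (adjusted p = 9.7e-11). COL5A2, by contrast, was at 167 and 110.4 CPM in mural-like cells and 123 and 92.8 CPM in endothelial-like cells but at no more than 16.4 CPM in any neural or glial class. Endothelial-like cells were higher by 4.09 ± 0.48 (adjusted p = 7.9e-06), and they held COL5A1 at 22.4 and 0 CPM.

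COL11A1, a fibrillar chain best known from cartilage and the vitreous, was the chicken member with the most UMIs, 29253 and 32084 in kept cells. Its level was 674 and 701 CPM in astrocyte-like cells, 474 and 328 CPM in the ependymal-like cluster, 236 and 232 CPM in cycling cells, 224 and 213 CPM in the oligodendrocyte lineage and 87.7 and 90.03 CPM in neurons. Cycling and lineage values lay close to the 208 and 247 CPM of low-count barcodes, but mural-like (53.2 and 78.4 CPM), endothelial-like (22.4 and 6.18 CPM) and erythroid-like cells (13.0 and 11.6 CPM) lay far below them. It was called higher in astrocyte-like cells by 1.82 ± 0.11 (SE, log2; edgeR, adjusted p = 1.5e-09) and lower in neurons by −1.88 ± 0.14 (adjusted p = 1.3e-08), in mural-like cells by −1.96 ± 0.19 (adjusted p = 3.7e-07) and in endothelial-like cells by −4.30 ± 0.38 (adjusted p = 3.3e-07). With cells thinned to 5000 UMIs it was found in 88.8% and 91.5% of the astrocyte-like class, compared with 4.65% and 4.55% of erythroid-like cells. The related fugu gene col11a2 was at 34.6 and 42.5 CPM in the sema5a-positive cluster and at most 5.11 CPM in any other class, a difference of 6.10 ± 0.55 (adjusted p = 3.2e-08).

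Type VI collagen, whose chains assemble into microfibrils that link cells to the matrix, was present in mural-like cells of both species. In chicken COL6A1 was at 90.5 and 98.8 CPM in mural-like cells and COL6A2 at 76.3 and 87.1 CPM, with at most 11.2 CPM in any other class. The difference from neural and glial cells was 9.003 ± 0.46 for COL6A1 (SE, log2; edgeR, adjusted p = 1.7e-09) and 8.81 ± 0.38 for COL6A2 (adjusted p = 2.9e-10). COL6A1 was not called in endothelial-like cells or neurons by the comparison as set out. In both classes it was called higher by DESeq2, with the comparator cells pooled and without the cell of highest collagen share. The third chain COL6A3 did not follow them in level: it was at 30.2 and 1.45 CPM in mural-like cells and at 22.8 and 24.7 CPM in the ependymal-like cluster. By DESeq2, however, COL6A3 was called higher in mural-like cells.

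Fugu col6a1 was also found in several glial classes. It was at 158 and 196 CPM in the sema5a-positive cluster, 127 and 154 CPM in astrocyte-like cells, 47.9 and 133 CPM in mural-like cells, 39.0 and 43.6 CPM in neurons and 5.28 and 5.33 CPM in the oligodendrocyte lineage. Both mural-like values lay above those of the neurons, and they overlapped those of the astrocyte-like cells. The call in mural-like cells was small (1.06 ± 0.36, edgeR, adjusted p = 0.037), and with the comparator cells pooled it was lost. In astrocyte-like cells and the sema5a-positive cluster col6a1 was higher by 2.16 ± 0.19 (adjusted p = 4.1e-09) and 2.01 ± 0.21 (adjusted p = 1.3e-07), and in the lineage it was lower by −3.74 ± 0.27 (adjusted p = 2.1e-10). Among astrocyte-like clusters it was at 27.0 and 41.7 CPM in the her9-positive one, and at 218 and 196 CPM and 190.5 and 392 CPM in the others. Microglia-like cells, at 2.29 and 2.34 CPM and a depth of 5025 and 5298 UMIs, held far less than the low-count barcodes (47.5 and 46.2 CPM).

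The type VI second chain has 2 genes in the fugu files. The copy written col6a2 was at 31.9 and 35.8 CPM in mural-like cells and at 5.59 and 13.0 CPM in astrocyte-like cells. It was called higher in both, by 6.01 ± 0.93 (11 UMIs; edgeR, adjusted p = 0.00010) and 5.34 ± 0.67 (70 UMIs; adjusted p = 3.6e-06). The copy written COL6A2 had 12 UMIs in all, 0 of them in mural-like cells, and was not tested.

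Type IX collagen, a fibril-associated type, coats type II fibrils in cartilage. Fugu col9a2 was at 741 and 756 CPM in the sema5a-positive cluster, with a UMI in 95.1% and 94.7% of cells, and at 56.8 and 123 CPM in the oligodendrocyte lineage. Neurons were at 4.44 and 16.1 CPM, astrocyte-like cells at 3.72 and 6.87 CPM and microglia-like cells at 0 and 0.779 CPM, while low-count barcodes were at 29.2 and 35.5 CPM. The sema5a-positive cluster was higher by 4.97 ± 0.24 (SE, log2; edgeR, adjusted p = 6.6e-13) and the lineage by 1.71 ± 0.26 (adjusted p = 7.1e-06). The lineage was above the log-scale mean of the other classes but not above their pooled cells, which include the sema5a-positive cluster: with the comparator cells pooled the difference was 0.55 (adjusted p = 0.11). The partner chain col9a3 was at 7.41 and 9.24 CPM in the sema5a-positive cluster and at most 1.55 CPM in any other class, and it was too sparse for the test between classes.

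Chicken COL9A2 was at 31.6 and 30.8 CPM in cycling cells and 26.7 and 21.3 CPM in the oligodendrocyte lineage, and at most 3.27 CPM in the other classes. The 2 classes were called higher by 2.86 ± 0.22 (SE, log2; edgeR, adjusted p = 5.7e-08) and by 2.56 ± 0.21 (adjusted p = 1.6e-07). No other member was called higher in the lineage, apart from COL1A1 under the alternatives given above. The cycling cluster carried 6 lineage markers, OLIG2 and PDGFRA among them. COL9A1, with 2.56 and 1.93 CPM in cycling cells, was also called there (1.64 ± 0.64, adjusted p = 0.041), but not by DESeq2 (adjusted p = 0.146). COL9A3 had another place, at 10.9 and 16.9 CPM in astrocyte-like cells and 7.59 and 15.97 CPM in the ependymal-like cluster.

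Chicken astrocyte-like cells led in COL14A1, COL22A1 and COL16A1. COL14A1, which binds fibrils at their surface, was at 621 and 806 CPM there, 162 and 168 CPM in the ependymal-like cluster and 112.9 and 177 CPM in low-count barcodes. COL22A1, known from tissue junctions, was at 152 and 126 CPM, 69.5 and 59.5 CPM and 25.0 and 30.3 CPM in the same 3. COL16A1 was at 71.9 and 103 CPM in astrocyte-like cells and did not exceed 20.3 CPM in another class. For all 3 genes both astrocyte-like values lay above both values of every other class, and the differences were 3.97 ± 0.16 (edgeR, adjusted p = 1.1e-11), 5.94 ± 0.13 (adjusted p = 9.9e-14) and 5.31 ± 0.19 (adjusted p = 8.0e-12) on the log2 scale. COL22A1 was also called in the ependymal-like cluster (4.31 ± 0.24, adjusted p = 3.6e-09), but with the comparator cells pooled the difference was 0.98. The genes were not spread alike among astrocyte-like clusters. The cluster with AQP1, RSPO1 and POSTN, which also carried 3 mural markers, held COL14A1 at 1057 and 1167 CPM and COL16A1 at 147 and 199.7 CPM, and the largest cluster held COL14A1 at 314 and 497 CPM and COL22A1 at 215 and 167 CPM.

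In fugu COL14A1 was at 41.997 and 64.7 CPM in the sema5a-positive cluster, 13.8 and 28.5 CPM in neurons and 2.66 and 3.44 CPM in astrocyte-like cells. The neuron values were above the low-count barcodes (10.6 and 8.96 CPM), narrowly in library 1. The sema5a-positive cluster was higher by 4.25 ± 0.40 (SE, log2; edgeR, adjusted p = 5.5e-08) and neurons by 2.72 ± 0.39 (adjusted p = 7.4e-06), while the lineage, with 1 UMI, was lower by −5.96 ± 0.83 (adjusted p = 4.7e-06). With the sema5a-positive cluster counted in the lineage that call was lost (−0.04 ± 0.50, adjusted p = 0.97). Within fugu neurons the level ranged from 2.05 and 8.72 CPM in a cluster with scrt2 to 21.2 and 44.7 CPM in a cluster with gad1b and sst1.1.

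COL12A1, a fibril-associated collagen of dense tissue, and COL21A1, found in vessel walls, were unlike each other in chicken vessel cells. COL12A1 was at 218 and 166 CPM in mural-like cells, 162 and 92.8 CPM in endothelial-like cells, 96.3 and 65.3 CPM in neurons and 8.85 and 10.2 CPM in the ependymal-like cluster. Endothelial-like cells were higher than neural and glial cells by 2.16 ± 0.44 (SE, log2; edgeR, adjusted p = 0.0017), although the library 2 value, 92.8 CPM, lay below the library 1 value of the neurons. COL21A1 was at 40.2 and 46.1 CPM in neurons and at 0 and 1.45 CPM in mural-like cells, and neurons were higher than other neural and glial cells by 2.75 ± 0.22 (adjusted p = 3.7e-08). Precursor-side cells of the oligodendrocyte lineage, which that comparison holds within the whole lineage, were above the neurons of the same library for both genes, with COL12A1 at 97.3 and 79.3 CPM and COL21A1 at 79.3 and 56.8 CPM. Fugu COL12A1 had 48 UMIs in kept cells and fugu COL21A1 had 67, and neither was tested.

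Chicken COL25A1, a transmembrane collagen of neurons found in amyloid plaques and needed for motor innervation of muscle in mice, was at 357 and 478 CPM in neurons, 27.8 and 8.71 CPM in the ependymal-like cluster and at most 12.6 CPM in the other classes. A UMI was found in 59.5% and 63.5% of neurons at a depth of 19818 and 21715 UMIs, in 44.6% and 49.5% of them after thinning to 5000 UMIs, and the low-count barcodes were at 65.7 and 58.9 CPM. The difference was 5.71 ± 0.18 (SE, log2; edgeR, adjusted p = 1.9e-12). Neuron clusters differed: the largest was at 409.7 and 565 CPM, the cluster with LMX1B and DRGX at 241 and 201 CPM, and that with PKD2L1 and PKD1L2, which also carried 6 ependymal or floor plate markers, at 11.9 and 106.5 CPM. The cluster with NEUROD6 had 156.5 CPM in library 1 and 453 CPM in library 2.

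COL13A1, a transmembrane collagen found at neuromuscular junctions, was at 6.78 and 7.27 CPM in chicken neurons and was called higher by 6.15 ± 0.47 (SE, log2; edgeR, adjusted p = 6.2e-08). Its highest levels were in vessel cells, with 22.4 and 30.9 CPM (9 UMIs) in endothelial-like and 19.5 and 14.5 CPM in mural-like cells. Endothelial-like cells were higher than neural and glial cells by 6.63 ± 0.96 (adjusted p = 0.00013). Fugu COL25A1 was at 10.8 and 7.81 CPM in neurons and was not tested: outside neurons it had nearly all of its UMIs in library 1, such as 31 of 32 in astrocyte-like cells, and the low-count barcodes had 6.499 and 1.72 CPM.

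Other chicken neuron calls were on sparse genes. COL19A1, a fibril-associated collagen expressed by interneurons in mice, was at 4.32 and 2.36 CPM in neurons and 3.79 and 4.36 CPM in the ependymal-like cluster, and was called higher in neurons by 3.40 ± 0.49 (edgeR, adjusted p = 4.8e-05). COL8A1, a short-chain collagen of vessel and corneal membranes, was at 5.37 and 9.21 CPM in neurons and 3.79 and 13.1 CPM in the ependymal-like cluster, and was called in neurons by 2.49 ± 0.30 (adjusted p = 4.0e-06). In both genes the values of the 2 classes overlapped. Within neurons COL8A1 was highest in the LMX1B-positive cluster, at 13.1 and 28.7 CPM. COL8A2, its partner chain, was instead called in astrocyte-like cells (6.54 and 3.79 CPM, 4.26 ± 0.45, adjusted p = 2.7e-06).

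In fugu neurons COL4A1 and col27a1b were called higher on 10 and 7 UMIs. COL4A1 was at 0.493 and 4.13 CPM, below the low-count barcodes in both libraries. Its log2 fold change of 3.42 ± 0.98 (edgeR, adjusted p = 0.0062) fell to 1.22 (adjusted p = 0.54) without neuron library 2. For col27a1b, the neuron value was 2.29 ± 0.92 (adjusted p = 0.046) and the value in cycling cells, on 3 UMIs, 3.37 ± 1.28 (adjusted p = 0.044). With the library as a block both calls on col27a1b were lost (adjusted p = 0.069 each).

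Type XVIII collagen, a basement membrane proteoglycan, was found in vessel cells and glia. Fugu col18a1a was at 20.8 and 19.8 CPM in astrocyte-like cells, 9.30 and 4.53 CPM in cycling cells, 7.99 and 10.2 CPM in mural-like cells and 0 UMIs in the sema5a-positive cluster. Astrocyte-like cells were higher by 4.62 ± 0.47 (SE, log2; edgeR, adjusted p = 1.8e-07), and the sema5a-positive cluster, held against a floor of 3 UMIs over both libraries, was at least 3.03-fold lower than the pooled other classes. Chicken COL18A1 was at 252 and 346 CPM in mural-like cells, 126 and 97.3 CPM in the ependymal-like cluster and 16.8 and 24.7 CPM in endothelial-like cells. Mural-like cells were higher by 3.67 ± 0.13 (adjusted p = 1.4e-11) and the ependymal-like cluster by 2.62 ± 0.17 (adjusted p = 1.6e-08). COL26A1, a secreted collagen-domain protein, was at 43.4 and 44.4 CPM in chicken astrocyte-like cells and had 0 UMIs in endothelial-like cells, at least 2.29-fold lower than the pooled neural and glial cells by the same floor.

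The immune classes of fugu bore few collagen UMIs. Of the 13 tested members 0 were called higher in microglia-like cells (21.4% of all genes) and 3 lower (25%), and 0 were called in either direction in T-like or NK-like cells (12.9% higher and 15.8% lower), where the 2 libraries held 0 and 5 collagen UMIs. At an unadjusted p under 0.05 edgeR had 0 higher in either class and 2 lower in T-like or NK-like cells, and DESeq2 called 0 higher in both classes and 0 lower in the latter. In T-like or NK-like cells col9a2 was called lower with the comparator cells pooled (−4.19 ± 0.85, adjusted p = 0.0019), and col6a1 was called lower without the cell of highest collagen share in each class and library. The members called lower in microglia-like cells were col6a1, col9a2 and COL5A1. COL5A1 had 0 UMIs there, at least 8.53-fold below the pooled neural and glial cells.

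Within the fugu mural-like class the collagens differed in how their levels went with ACTA2, smooth muscle actin. Over its 74 cells, levels of ACTA2 and col1a1b had a Spearman correlation of 0.67 (0.59 and 0.70 in the 2 libraries). The value was 0.53 for col1a2 and COL5A1 and −0.27 for COL4A1 (−0.14 and −0.35). With myh11a, another mural marker, COL4A1 was at 0.19 (0.46 and −0.01), beside 0.40 for col1a1b, 0.23 for COL5A1 and 0.17 for col1a2. COL4A1 had its highest value with pdgfrb, the pericyte receptor, at 0.47. The cells share a library, a class and a low depth of 3744 and 3838.5 UMIs, and these values describe them without a test. In the 170 chicken mural-like cells COL4A1 had the highest correlation with ACTA2, 0.31 (0.41 and 0.26 in the 2 libraries), opposite in sign to the fugu value. It was followed by COL18A1 at 0.27 (0.40 and 0.18). With the other chicken markers COL4A1 was at 0.30 (RGS5), −0.04 (PDGFRB), −0.16 (ABCC9) and −0.25 (KCNJ8). The median share of collagen in a cell was 0.742% in the chicken mural-like class and 0.27% in the fugu one, over unlike sets of members. Cells in which collagen exceeded 1% of UMIs numbered 30 of 170 and 1 of 74 in these classes. Outside mural-like cells such a cell was seen once in chicken astrocyte-like cells and once in the ependymal-like cluster.

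**Figure D4:**
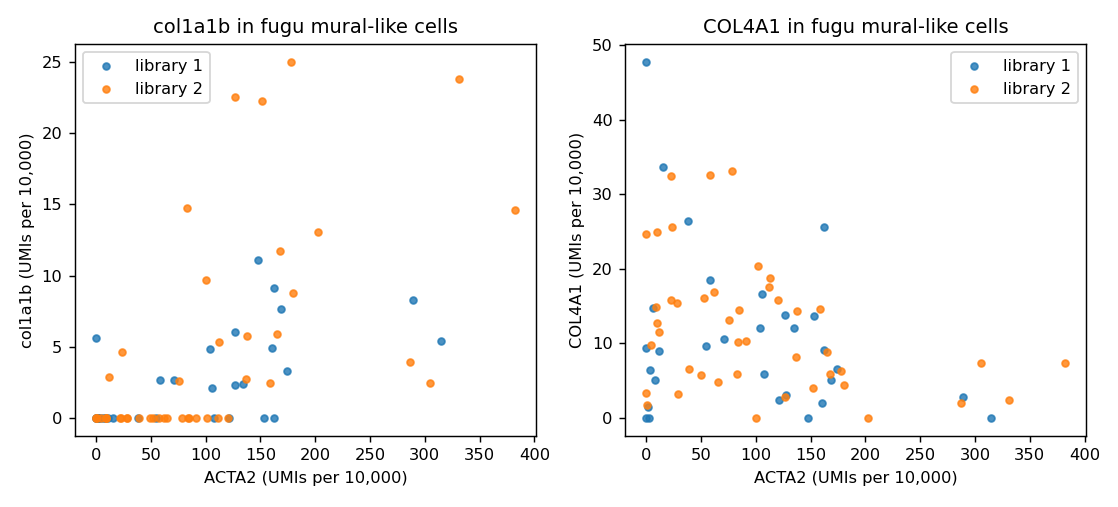
The 74 fugu mural-like cells by ACTA2 level (horizontal axis) and collagen level (vertical axis), scaled to the total UMIs of the cell on linear axes, one panel for col1a1b and one for COL4A1, coloured by library. The Spearman correlation with ACTA2 is 0.67 for col1a1b and −0.27 for COL4A1, whose highest cells lie at low ACTA2.

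The oligodendrocyte lineage was split next, since the study followed its differentiation. Clusters with at least 3 precursor markers, and at least as many of these as of differentiating markers, were compared with clusters that had at least 3 differentiating markers and more of these than of precursor markers. In chicken the precursor side was 2 clusters, of which the one with 202 cells also carried 7 cycling markers. A chicken cluster of 1857 cells, with 2 precursor markers and 1 differentiating marker, did not reach the minimum of 3 and was left between the sides. In fugu it was 1 cluster of 98 cells, set against 2347 cells. The fugu cluster carried 3 markers of each side, with GPR17 leading its genes, so that it stood on the precursor side through a tie and is called here the early cluster.

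Of 34 chicken members 19 were higher on the precursor side, against 23.4% of all genes tested, and 3 lower, against 10.3%. The member median was 1.91 and that of all genes 0.08. With the minimum of 3 markers dropped, which puts the cluster between on the precursor side, 17 members were higher and 2 lower: the calls on COL5A2, COL13A1, COL17A1 and COL8A1 were lost and one on COL14A1 was added. All 19 were above the differentiating side in both libraries, with COL4A1, COL4A2, COL4A3, COL4A4, COL4A5 and COL4A6 among basement membrane chains, and COL9A1, COL9A2, COL12A1, COL19A1 and COL21A1 among fibril-associated ones. The largest difference was in COL21A1, at 79.3 and 56.8 CPM on the precursor side and 0.400 and 0.0982 CPM on the differentiating side (7.77 ± 0.34, SE, log2; edgeR, adjusted p = 1.6e-11). COL12A1 was at 97.3 and 79.3 CPM against 1.60 and 1.41 CPM (5.53 ± 0.27, adjusted p = 2.0e-11) and COL4A1 at 44.7 and 32.9 CPM against 1.20 and 1.18 CPM (4.68 ± 0.25, adjusted p = 6.2e-11).

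COL9A2 was at 86.6 and 78.8 CPM against 3.80 and 3.44 CPM, and lay between at 34.1 and 35.6 CPM in the cluster between, which carried GPR17 and replication genes. COL6A3 (6.72 and 7.53 CPM against 0.120 and 0.0655 CPM, 5.79 ± 0.74, edgeR, adjusted p = 4.0e-06) and COL19A1 (3.98 and 1.97 CPM against 0.0400 and 0.0655 CPM, 5.22 ± 0.68, adjusted p = 1.2e-05) were sparse. COL11A1, at 527 and 522 CPM against 116 and 129.7 CPM, was higher by 1.74 ± 0.15 (adjusted p = 1.7e-08). The 3 members that were higher on the differentiating side were COL18A1, at 35.9 and 35.8 CPM against 6.35 and 12.4 CPM (−2.32 ± 0.23, adjusted p = 1.7e-07), COL5A1, at 17.1 and 14.5 CPM against 4.11 and 3.93 CPM (−2.31 ± 0.35, adjusted p = 2.2e-05), and COL8A1, on 3 and 38 UMIs, whose call was also lost in DESeq2. COL5A1 was below the low-count barcodes (64.6 and 79.8 CPM) on both sides, whereas COL18A1 on the differentiating side was above them (21.1 and 26.7 CPM).

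**Figure D5:**
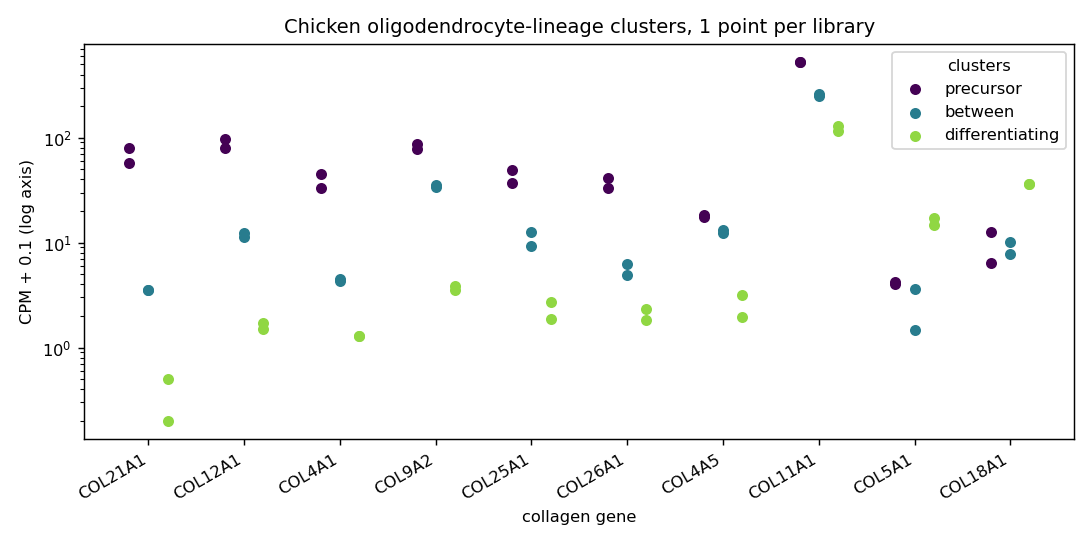
Level of chicken collagens, as CPM plus 0.1 on a log axis, in 3 parts of the oligodendrocyte lineage (precursor side, between, differentiating side), each point 1 library. COL21A1 drops from 79.3 and 56.8 CPM to 0.400 and 0.0982 CPM, and COL18A1 goes the other way, from 6.35 and 12.4 CPM to 35.9 and 35.8 CPM.

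In fugu 4 of 14 tested members were higher in the early cluster (10.4% of all genes) and 0 lower (10.7%; edgeR, 1 at an unadjusted p under 0.05 and 0 by DESeq2). Of the 4, col6a1 had the most UMIs, at 55.7 and 61.4 CPM in the early cluster and 2.43 and 2.56 CPM in the rest (4.35 ± 0.45, SE, log2; edgeR, adjusted p = 8.5e-08), followed by col8a2, a short-chain collagen, at 22.8 and 12.9 CPM against 0.429 and 0.480 CPM on 13 and 6 UMIs (4.98 ± 0.89, adjusted p = 0.00022). COL5A1 had 6 UMIs in the early cluster and 0 in the rest, and col5a2a had 2 UMIs and 0. With the rest set at the floor of 3 UMIs, COL5A1 was 38.2-fold higher. That value leaves out the counting error of the 6 UMIs, and the low-count barcodes held COL5A1 at 5.69 and 4.83 CPM. For col6a1 the low-count barcodes were at 47.5 and 46.2 CPM, below the early cluster and above the rest of the lineage. Fugu col9a2 was at 45.6 and 61.4 CPM against 57.4 and 126 CPM and was not called (−0.96 ± 0.42, adjusted p = 0.10). When the sema5a-positive cluster was counted on the precursor side, a choice made after seeing the data, 8 members were called, with col9a2, COL14A1, col11a2, col1a1a and col1a1b added and col5a2a lost.

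The genes that make, bind and accompany collagen were followed as 4 lists. Unlike the members, these genes could shape the clusters, so their counts describe the classes and test nothing further. The share of all genes called in each class stands beside the member counts above. In fugu mural-like cells 16 of 24 synthesis and cross-linking genes were called higher and 1 lower, 2 of 4 receptors were higher, 6 of 8 basement membrane partners were higher, and 4 of 7 fibril partners were higher and 1 lower. Among them pcolcea, an enhancer of procollagen cleavage, was at 551 and 536 CPM, bgnb (biglycan) at 455 and 684 CPM, and the laminin chain lamb1b at 759 and 1032 CPM. Chicken mural-like cells had 11 of 28 synthesis genes higher and 3 lower, 4 of 9 receptors higher and 2 lower, 11 of 13 basement membrane partners higher and 1 lower, and 3 of 10 fibril partners higher and 3 lower. SERPINH1, the collagen chaperone, was at 580.1 and 549 CPM there, the laminin chain LAMA4 at 1710.02 and 1987 CPM, the laminin-binding NID1 at 1385 and 1826 CPM, fibronectin FN1 at 3438 and 3587 CPM and the collagen receptor chain ITGA1 at 929.5 and 1168 CPM.

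Astrocyte-like cells had 13 of 24 synthesis genes higher and 1 lower in fugu, with serpinh1b at 125 and 172 CPM and crtap at 116 and 129 CPM. In chicken 6 of 28 were higher and 4 lower, near the 16.8% and 9.38% of all genes, with SERPINH1 at 128 and 106 CPM, and 6 of 10 fibril partners were higher and 0 lower, with TNC at 1519.8 and 1666 CPM and POSTN at 209 and 146 CPM. The chicken ependymal-like cluster had 11 of 28 synthesis genes and 7 of 10 fibril partners higher, ELN (elastin) reaching 1120.3 and 1722 CPM and MFAP5 206 and 208 CPM. On the chicken precursor side 9 of 13 basement membrane partners were higher and 1 lower, among them SPARC, a collagen-binding glycoprotein, at 5912 and 6504 CPM, and 12 of 29 synthesis genes were higher and 2 lower. In the fugu sema5a-positive cluster fn1a (fibronectin) was at 143 and 103 CPM and the receptor DDR2 at 22.2 and 24.0 CPM, while lamb2 and fmoda were at 0 UMIs. In mural-like cells the median log2 fold changes of synthesis genes, receptors, basement membrane partners and fibril partners were 2.77, 1.90, 3.98 and 5.41 in fugu, beside −0.39 for all genes, and 0.996, 1.36, 4.10 and −0.37 in chicken, beside −0.16. The medians of the 4 lists were all negative in the oligodendrocyte lineage, from −2.12 to −0.53 in fugu and from −2.64 to −0.33 in chicken. In the sema5a-positive cluster they ran from −1.54 to −0.27. The medians of all genes were −0.19, −0.05 and −0.09 in the same order. Synthesis genes were called both ways: 6 higher and 8 lower of 24 in the fugu lineage, and 2 and 7 of 28 in the chicken lineage. In the sema5a-positive cluster 8 of 24 were higher and 7 lower.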

How the data were processed

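Per the labels and the study's methods, the authors made 10x 3′ libraries and deposited raw UMI counts from Cell Ranger 7.2.0, with fugu mapped to Takifugu rubripes and chicken to Gallus gallus (Ensembl annotation). The deposited counts are unfiltered matrices of genes by barcodes. Barcodes over 3000 UMIs (fugu), 5000 (chicken library 1) and 5500 (chicken library 2) that also passed the study's minimums of detected genes were kept, the study's emptyDrops step was not repeated, and doublets called by Scrublet (the study used scDblFinder) were removed at a rate of 0.8% per 1000 barcodes. Cells were clustered per species with Seurat 5.3.0 (R 4.3.3) without collagen genes. A cluster took the name with most markers, at least 3, a marker counting if 10% of cells or more carried it at 1.5 times the CPM of other cells or more. A lineage cluster took the side with more markers, at least 3, and with equal numbers the precursor side. The tie placed 1 fugu cluster, and the minimum, which was added to the design later, left 1 chicken cluster between the sides.

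UMIs were summed per library and class with at least 20 cells in each library and tested in edgeR 4.0.16 (quasi-likelihood, TMM, default filter), adjusted by Benjamini-Hochberg over all genes. The SE of an edgeR fold change was derived as the absolute log2 fold change over the square root of the F statistic. It is approximate, most of all where comparator classes are at 0 UMIs. DESeq2 1.42.0, other normalizations, filters, clusterings and libraries left out were alternatives. The method was tested on simulated data in which 200 genes changed 4-fold. From 47% (chicken endothelial-like cells) to 94% (fugu astrocyte-like cells) of these were recovered, with 53% in fugu mural-like cells. False calls numbered 1 to 14 in a comparison. A member not called in a small class may therefore still differ. Classes of a library come from the same pooled animals, so the library was a block in one alternative. Deviations of same-numbered classes correlated above 0.1 in 9 of 28 class pairs in fugu and 8 of 28 in chicken. Mudskipper was not analysed here.

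Every collagen gene was a member and could be named. Full statistics went to the 3 members of highest mean CPM in each class, to up to 5 members per comparison with the largest log2 fold change among those called with the same direction in both libraries, and to both fugu copies where 1 was named; the other genes with statistics were chosen after their values were seen. Of the pathway lists, up to 3 genes of largest change per list and comparison could be named. Members, lists and rules were chosen with earlier results of these data known. Replicates are pools of animals, 2 per species. All classes of a species entered one fit without a library term. Classes of the same pool were thus treated as independent and shared an estimate of the spread. The p-values measure only the spread between 2 libraries within classes. A floor of 3 UMIs covers counting error only.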

Additional observations from a re-analysis of the deposited data

Results flagged for a closer look

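Under comparisons of the same name 3 members went in opposite directions in the 2 species. The difference between species was not tested, since species, age, reference and depth differ together. COL14A1 was higher in fugu neurons than in other neural and glial cells (2.72 on the log2 scale) and lower in chicken neurons (−1.02). COL4A1 was higher in fugu neurons (3.42, on 10 UMIs and below the level of low-count barcodes) and lower in chicken neurons (−1.87). COL5A1 was higher in the fugu early cluster than in the rest of the lineage (6.87, on 6 UMIs against 0). On the chicken precursor side it was lower (−2.31). These sides are not alike: the fugu early cluster, placed by a tie, was led by GPR17. Chicken clusters with GPR17 stood on the differentiating side or between the sides. The chicken comparators contain astrocyte-like cells with 621 and 806 CPM of COL14A1 and 213 and 188 CPM of COL4A1, while fugu astrocyte-like cells held 2.66 and 3.44 CPM and 0.266 and 0 CPM, and the part of this in the neuron differences was not tested.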

How the results depend on the processing

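Counts of members called stayed within 1.5 times of their value under most alternatives. In fugu a UMI minimum 1.5 times as high left 0 members higher in non-neural classes, in place of 9, because the mural-like class fell under 20 cells, and left 6 in neural and glial classes, in place of 12. Counting the sema5a-positive cluster as precursor, added after seeing the data, gave 8 lineage calls in place of 4. Without 1 summed library the counts ranged from 6 to 12 (fugu non-neural), 11 to 13 (fugu neural and glial), 3 to 4 (fugu lineage), 12 to 13 (chicken non-neural), 22 to 30 (chicken neural and glial) and 18 to 21 (chicken lineage). With the replicate block the counts were 9, 11 and 4 in fugu and 12, 29 and 23 in chicken, and apart from col27a1b it took 1 call, COL9A2 lower in chicken mural-like cells, and added COL14A1 (lower in fugu microglia-like cells), col1a1b (higher in fugu neurons), COL1A1 (lower in chicken neurons, higher in the lineage), COL5A2 (lower in the chicken lineage) and COL16A1 (higher on the chicken precursor side). At cluster resolution 1.5 the log2 fold changes of COL6A1 and COL6A2 in chicken cycling cells, on 0 UMIs there, turned to 1.77 and 0.39. DESeq2 called 9 fugu members lower in the oligodendrocyte lineage in place of 3. In chicken endothelial-like cells it called 7 higher in place of 5 and 4 lower in place of 2, and in chicken cycling cells 1 higher in place of 2. The cause was not tested. Pooling the comparator cells, added after seeing the data, left fewer members to test. It gave 7 lower and 0 higher of 10 tested in the fugu lineage. Chicken endothelial-like cells had 6 higher and 6 lower of 17, in place of 5 and 2 of 33. Chicken mural-like cells had 12 higher and 5 lower of 17, in place of 12 and 8 of 33. The ependymal-like cluster had 8 higher of 20, in place of 16 of 33, and chicken astrocyte-like cells 11 of 22, in place of 17 of 33. No share of all genes was taken under these alternatives. Of the single differences followed, over the alternatives other than those added after seeing the data, 1659 had the same direction and call, 61 lost the call and 2 turned. Of the 1659, 72 came from the same fit at a log2 fold change past 0.25, where no call could be lost. Fits that left out a library of a class outside the comparison also counted. The differences followed were up to 5 of the largest called per comparison, so the tally does not measure how stable the other calls are. The fugu precursor cluster did not form at the higher UMI minimum or with doublets kept, and in chicken the mural-like cells joined the endothelial-like cluster at that minimum, so these gave no value. In fugu 14 of 27 members were too sparse for the test between classes, and in chicken 1 of 34; the part of sequencing depth in this was not tested.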
